A study of Mus musculus with 12 samples.

Results

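The genes described here are 10 secreted signals, or makers of signals, of fibroblasts: the chemokines Ccl2, Ccl7, Cxcl1, Cxcl5 and Cxcl12, the cytokines Csf1, Il6, Il11 and Lif, and the prostaglandin enzyme gene Ptgs2. They were chosen by symbol from a table of 24062 gene symbols, and all 10 were found in it. The list was drawn up with earlier results of these libraries known and names no contrast or threshold, so the adjusted p-values below describe the fit and are not independent support for the choice. Of the 10 genes, 8 passed the filter on low counts that 12154 genes of the table passed, and Cxcl1 and Il6 did not.

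RNA-Seq was performed on mouse embryonic fibroblasts (MEFs) that carried a control hairpin against Renilla luciferase (shRenilla) or a hairpin against Bruce (shBruce), the gene Birc6, which encodes a giant inhibitor-of-apoptosis protein with ubiquitin ligase activity. Each line was kept in full medium (FM) or starved for 2 h without serum and amino acids (Starv), which gave 4 conditions with 3 libraries each. The shBruce cells carried a single hairpin, so any other difference between the lines cannot be told apart from the knockdown. No source used here says whether replicates were separate cultures, so p-values measure the spread between these libraries only. In a bulk sample, fewer cells that make a transcript and less transcript per cell cannot be told apart.

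Birc6, the targeted gene, had a mean normalized count of 4339 ± 942 (SD, n = 3) in shRenilla FM and 1288 ± 93.7 in shBruce FM, and of 4086 ± 1125 in shRenilla Starv and 1034 ± 288 in shBruce Starv. By edgeR its log2 fold change between the lines was -1.75 ± 0.25 (SE) in FM, which was not called (adjusted p = 0.0627). In Starv it was -1.98 ± 0.25 (adjusted p = 0.0186). Total counts ranged from 7717265, in shBruce Starv replicate 1, to 18510540 per library. The libraries of shBruce Starv resembled each other least, with mean correlations to their own condition of 0.958 to 0.970, against 0.992 to 0.994 in shRenilla FM. The 14 fibroblast markers, of which 2 were under a mean normalized count of 10, summed to between 135722 and 207375 in every library. The 12 leukocyte markers in the table summed to between 87.4 and 214, with 11 of them under a mean of 10 and 1 at 0 in all libraries, and 6 of 8 endothelial and 7 of 8 epithelial markers were also under a mean of 10. Normalized counts put the libraries on 1 scale: raw counts were divided by TMM-adjusted library sizes, scaled so that their geometric mean over all 12 was unity.

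Chemokines are small secreted proteins that direct the migration of leukocytes through G protein-coupled receptors. Ccl2 and Ccl7 attract monocytes, Cxcl1 and Cxcl5 attract neutrophils, and Cxcl12 is a stromal chemokine that retains stem and progenitor cells in their niches. Csf1 supports the survival of macrophages, whereas Il6, Il11 and Lif signal through the shared receptor subunit gp130 (gene Il6st), and Ptgs2 encodes the inducible cyclooxygenase that commits arachidonic acid to prostaglandins. In fibroblasts many of these genes are induced by serum and inflammatory signals, and several of the messages carry AU-rich elements, sequences in the 3′ UTR that bind proteins of mRNA decay.

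The genes lie on 6 chromosomes in the GENCODE M21 annotation of GRCm38. Ccl2 (chr11:82035571-82037453) and Ccl7 (chr11:82045712-82047525) are neighbours on the plus strand with 8259 bases between them. Cxcl5 (chr5:90759360-90761624) lies 129617 bases before Cxcl1 (chr5:90891241-90893115), also on the plus strand. The others are Il6 (chr5:30013114-30019981, plus), Cxcl12 (chr6:117168535-117181367, plus), Csf1 (chr3:107741048-107760469, minus), Il11 (chr7:4772373-4782859, minus), Lif (chr11:4257557-4272514, plus) and Ptgs2 (chr1:150100031-150108227, plus). Ccl2 overlaps the antisense gene Gm17268, which the table does not list, and the strand setting of the read counting is not given in the sources used here.

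Promoter windows of RefSeq on GRCm38.p6, from 250 bases before to 50 bases after a gene's start, were found for 7 of the 10 genes, and not for Ccl2, Ccl7 and Cxcl5. The windows of 3 genes whose counts fell with starvation in both lines (Csf1, Lif and Ptgs2) and of Cxcl12, which was not called, are shown as examples. Capitals mark an NF-kappaB consensus in Csf1, an AP-1 site (the first) and an NF-kappaB consensus (the second) in Lif, and a C/EBP motif in Ptgs2. No motif that was searched for is in the window of Cxcl12. Il6 and Cxcl1, which did not pass the filter on low counts, hold motifs as well. Il11, called lower in shRenilla MEFs alone, has an AP-1 site but no NF-kappaB consensus and no C/EBP motif. Whether these motifs go with the change in starvation was not tested.
Csf1 promoter, chr3:107760420-107760719, minus strand: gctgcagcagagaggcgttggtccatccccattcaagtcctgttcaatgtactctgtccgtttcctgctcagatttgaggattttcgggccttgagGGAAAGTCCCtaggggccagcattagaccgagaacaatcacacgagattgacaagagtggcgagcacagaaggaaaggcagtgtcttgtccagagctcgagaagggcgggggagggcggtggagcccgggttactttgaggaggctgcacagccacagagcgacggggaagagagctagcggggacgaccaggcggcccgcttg
Lif promoter, chr11:4257318-4257617, plus strand: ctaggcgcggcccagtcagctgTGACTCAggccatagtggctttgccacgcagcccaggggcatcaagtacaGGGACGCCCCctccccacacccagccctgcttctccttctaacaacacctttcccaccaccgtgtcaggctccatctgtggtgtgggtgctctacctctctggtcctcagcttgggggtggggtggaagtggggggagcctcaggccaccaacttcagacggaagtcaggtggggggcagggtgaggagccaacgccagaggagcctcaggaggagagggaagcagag
Ptgs2 promoter, chr1:150099781-150100080, plus strand: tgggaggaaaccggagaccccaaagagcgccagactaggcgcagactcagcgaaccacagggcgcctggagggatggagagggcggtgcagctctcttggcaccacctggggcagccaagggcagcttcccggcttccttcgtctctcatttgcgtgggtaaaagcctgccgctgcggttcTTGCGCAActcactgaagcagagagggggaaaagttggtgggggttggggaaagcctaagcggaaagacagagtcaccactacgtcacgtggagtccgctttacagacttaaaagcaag
Cxcl12 promoter, chr6:117168285-117168584, plus strand: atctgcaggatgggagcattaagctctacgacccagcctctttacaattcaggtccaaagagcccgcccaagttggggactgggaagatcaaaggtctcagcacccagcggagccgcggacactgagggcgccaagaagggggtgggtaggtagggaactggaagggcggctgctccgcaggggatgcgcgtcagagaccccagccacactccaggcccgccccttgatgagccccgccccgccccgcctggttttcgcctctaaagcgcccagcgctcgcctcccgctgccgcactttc

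An NF-kappaB consensus, searched on both strands, was found in 4 of the 7 genes with a window (Cxcl1 at -71, Csf1 at -154, Il6 at -44 and Lif at -178 from the start), against 8.46% of 32817 windows of all genes. The AP-1 site TGANTCA was found in 3 of 7 (Il6, Il11 and Lif), against 7.81% of all windows, and the C/EBP motif TTGCNNAA in 2 of 7 (Il6 and Ptgs2), against 10.8%. The cyclic AMP response element TGACGTCA (1.79% of all windows), the CArG box (1.63%), the ATF4 element TTGCATCA (0.896%) and the TATA box TATAAA (13.6%) were found in 0 of 7. For Il11 2 windows were searched. In Cxcl1 and Lif the consensus matched on both strands at overlapping positions, which counted once. Cxcl1 and Il6, which are among the genes counted, did not pass the filter on low counts, so no fold change was fitted for them. These are matches of letters and not measured binding sites.

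The AU-rich nonamer TTATTTATT was found in the 3′ UTR of 4 of the 10 genes, against 8.47% of the 11588 genes past the filter with an annotated 3′ UTR. Cxcl1, 1 of these 4 genes, and Il6 did not pass the filter, so the sets compared are not alike. With overlapping copies counted, Il11 had 5 copies, Cxcl1 and Lif 2 each, and Ptgs2 1. The first of them is shown for each gene in a stretch of 30 bases from GENCODE M21, with the nonamers in capitals.
Cxcl1, chr5:90892615-90892644, plus strand: atttatgtatTTATTTATTccacaaagtgt
Il11, chr7:4773501-4773530, minus strand: aaaccagatcTTATTTATTTATTTATTttg
Lif, chr11:4272039-4272068, plus strand: aaaggggcctTTATTTATTatttaaaactt
Ptgs2, chr1:150105790-150105819, plus strand: ctgaccatatTTATTTATTtatgtgaagaa
The shorter pentamer ATTTA, which the nonamer contains, occurred in the 3′ UTRs of the 10 genes at 0.771 per kb in Cxcl12 up to 11.8 per kb in Cxcl1. In 9 of the 10 genes the density was over the median of the genes past the filter, 1.34 per kb, with Cxcl12 as the exception. In 7 it was over their upper quartile of 2.62 per kb. Cxcl1 and Il6, which did not pass the filter, are in both counts.

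Levels between genes were compared per kb of transcript, because long transcripts collect more reads. In shRenilla FM, Ccl2 was highest at 1974 ± 123 normalized counts per kb (SD, n = 3), followed by Csf1 at 1615 ± 56.5 and Ptgs2 at 1300 ± 143, and the ranges of these 3 genes did not overlap. Ccl7 came next at 470 ± 29.8 and Lif at 277 ± 12.3, whose range overlapped that of Cxcl12 at 262 ± 5.66. Il11 was at 33.9 ± 3.41 and Cxcl5 at 8.27 ± 1.33, while Cxcl1 and Il6 stayed under 1 per kb in the mean and overlapped.

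After starvation the order changed. In shRenilla Starv, Csf1 led at 494 ± 14.6 normalized counts per kb, and Ptgs2, Ccl2 and Cxcl12 followed at 218 ± 25.9, 216 ± 16.8 and 199 ± 11.6 with overlapping ranges. In shBruce Starv, Csf1 led at 388 ± 30.3, and Ptgs2, at 1007 ± 280 in shBruce FM the third in order, stood at 74.3 ± 17.5 and overlapped Ccl7 at 86.9 ± 37.3. The plot of levels per kb shows all libraries on a log axis.

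**Figure D1:**
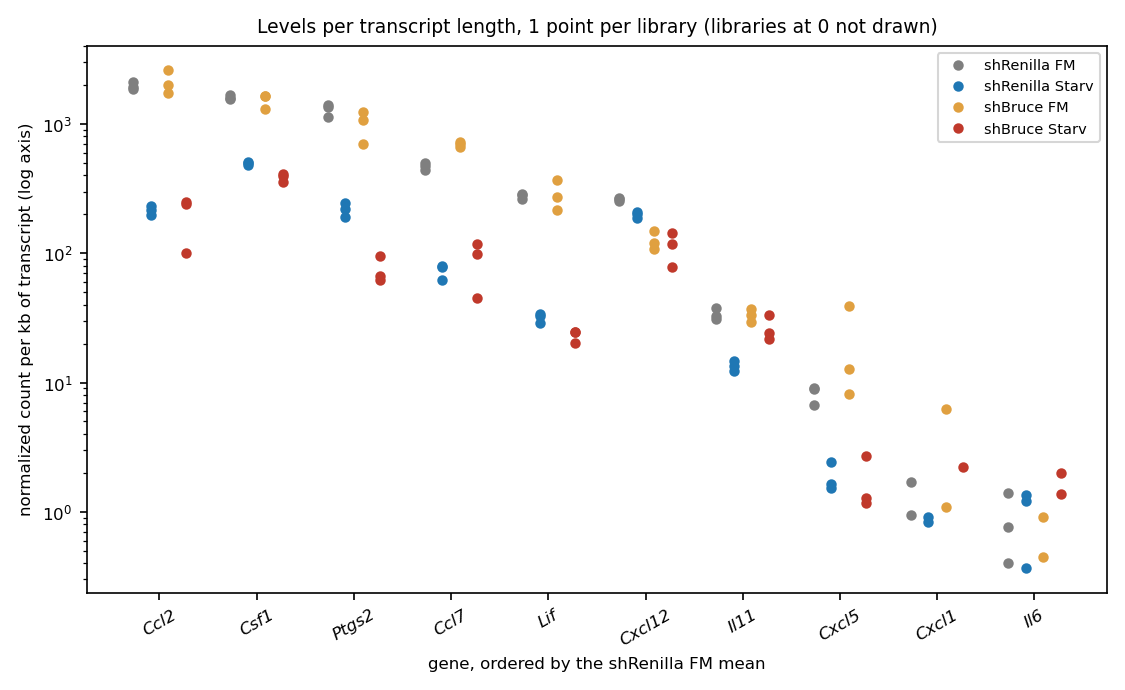
Normalized counts per kb of transcript (log axis) of the 10 genes, ordered by their mean in shRenilla FM, with 1 point per library and a colour per condition. Ccl2, Csf1 and Ptgs2 stand highest in FM, Cxcl12 has starved libraries close to its FM libraries, and Cxcl1 and Il6 stay near the bottom of the axis.

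The first question was how starvation changed these genes in the control line. In shRenilla MEFs, 7 of the 8 genes tested were lower in Starv than in FM at an adjusted p under 0.05, and 0 were higher, while 7.27% of all 12154 genes tested were called lower and 9.69% higher (883 lower and 1178 higher, or 641 and 1588 with upper-quartile scaling). The median log2 fold change of the 8 genes was -2.35, against -0.01 over all genes. In shBruce MEFs, 6 of 8 genes were called lower and 0 higher, where 10.6% of all genes were called lower and 12.4% higher (1284 lower and 1506 higher, or 933 and 1991 with upper-quartile scaling), and their median was -3.24 against 0.02. Cxcl5 is among these counts but passed the filter through its FM libraries alone. Without it, a count added after seeing the data, 6 of 7 genes were called lower in shRenilla (median -2.58) and 5 of 7 in shBruce MEFs (median -3.02). Where the libraries of 2 conditions did not overlap, the exact permutation test of 3 against 3 gave p = 0.1, the smallest it allows. The summed normalized counts of the epithelial markers, of which only Krt19 passed the filter, also differed between the media, at 636 to 894 in FM and 246 to 653 in Starv, and their part in these results was not tested.

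Ccl2, the monocyte chemokine, had normalized counts of 1716, 1576 and 1523 in the 3 shRenilla FM libraries and of 189, 162 and 177 in shRenilla Starv. It fell 9.11-fold (log2 fold change -3.19 ± 0.27 (SE), adjusted p = 6.36e-06). In shBruce MEFs its counts were 1625, 2110 and 1418 in FM and 196, 202 and 81.7 in Starv, a 10.9-fold fall (log2 fold change -3.45 ± 0.28, adjusted p = 3.52e-06). In both lines every starved library was under every FM library, and shBruce Starv replicate 3 was the lowest of all 12.

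Ccl7, the neighbour of Ccl2, had normalized counts of 400.0, 376 and 352 in shRenilla FM and of 49.5, 62.3 and 63.8 in shRenilla Starv. The fall was 6.43-fold (log2 fold change -2.69 ± 0.25, adjusted p = 1.54e-05). In shBruce MEFs the counts were 560, 577 and 532 in FM and 78.6, 93.9 and 36.2 in Starv, and the fall was 8.13-fold (log2 fold change -3.02 ± 0.25, adjusted p = 5.96e-06). The conditions did not overlap in either line, and replicate 3 was again the lowest of the shBruce Starv libraries.

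Cxcl5, a neutrophil chemokine, was near the limit of the filter, with 13, 15 and 16 raw counts in shRenilla FM and 3, 3 and 4 in shRenilla Starv. In shBruce MEFs it had 12, 19 and 62 counts in FM and 1, 4 and 2 in Starv. It passed the filter through its FM libraries alone, since 0 of the 6 starved libraries reached the limit, so it had to differ between the media to be tested at all. The log2 fold change was -2.12 ± 0.68 (adjusted p = 0.0478) in shRenilla and -3.45 ± 0.67 (adjusted p = 0.00272) in shBruce MEFs. The call in shRenilla was kept in 5 of the 12 fits that left out 1 library, with adjusted p from 0.00360 to 0.148, and was lost without any 1 of the 6 shRenilla libraries or without shBruce Starv replicate 2. It was also lost with upper-quartile scaling (adjusted p = 0.0536).

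Cxcl1, the other neutrophil chemokine of the list, had raw counts of 2, 0 and 1 in shRenilla FM, 1, 1 and 0 in shRenilla Starv, 0, 1 and 6 in shBruce FM and 0, 2 and 0 in shBruce Starv. All 4 conditions overlapped, and a difference was not detectable at this depth. For scale, 3 counts over the libraries of a condition corresponded to a mean normalized count between 0.867 and 1.20, which covers counting error only.

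Cxcl12, the stromal chemokine, had normalized counts of 1439, 1502 and 1477 in shRenilla FM and 1139, 1175 and 1048 in shRenilla Starv, where the conditions did not overlap but the change was not called (log2 fold change -0.39 ± 0.18, adjusted p = 0.156). In shBruce MEFs the counts of 835, 681 and 612 in FM overlapped those of 440, 665 and 809 in Starv (log2 fold change -0.14 ± 0.18, adjusted p = 0.607).

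Csf1 is the macrophage growth factor of the list. Its normalized counts were 6546, 6680 and 7005 in shRenilla FM and 2107, 2091 and 1994 in shRenilla Starv, a 3.27-fold fall (log2 fold change -1.71 ± 0.12, adjusted p = 1.66e-06). In shBruce MEFs they were 6831, 6917 and 5486 in FM and 1666, 1477 and 1717 in Starv, a 3.96-fold fall (log2 fold change -1.98 ± 0.12, adjusted p = 3.50e-07). Of the 6 genes called in both lines, Csf1 had the log2 fold change smallest in size in each of them and also the smallest SE.

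Lif, a gp130 cytokine known for holding mouse embryonic stem cells in self-renewal, had normalized counts of 1059, 1134 and 1153 in shRenilla FM and 137, 131 and 117 in shRenilla Starv. It fell 8.67-fold (log2 fold change -3.12 ± 0.19, adjusted p = 6.07e-07). In shBruce MEFs, counts of 1096, 1486 and 864 in FM stood against 98.8, 99.2 and 80.8 in Starv, a 12.4-fold fall (log2 fold change -3.63 ± 0.20, adjusted p = 1.69e-07). All starved libraries were far under all FM libraries.

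Il11, a gp130 cytokine made by stromal cells, was the one gene called in a single line. It had normalized counts of 63.7, 73.6 and 60.9 in shRenilla FM and of 26.3, 28.6 and 23.8 in shRenilla Starv, a 2.51-fold fall (log2 fold change -1.33 ± 0.21, adjusted p = 0.000757). In shBruce MEFs the counts of 57.3, 72.2 and 64.5 in FM overlapped those of 64.5, 42.7 and 47.4 in Starv, with a log2 fold change of -0.36 ± 0.20 (adjusted p = 0.219). The difference between the lines in this change is given with the interaction below.

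Il6 had raw counts of 4, 1 and 2 in shRenilla FM, 4, 1 and 3 in shRenilla Starv, 2, 1 and 0 in shBruce FM and 0, 3 and 5 in shBruce Starv. As for Cxcl1, the conditions overlapped and no difference was detectable at this depth.

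Ptgs2 showed the largest fall of the list in shBruce MEFs. Its normalized counts were 6015, 5070 and 6282 in shRenilla FM and 980.003, 1081 and 851 in shRenilla Starv, a 5.96-fold fall (log2 fold change -2.58 ± 0.22, adjusted p = 6.36e-06). In shBruce MEFs they were 5551, 4788 and 3115 in FM and 278, 420 and 294 in Starv, a 13.5-fold fall (log2 fold change -3.75 ± 0.23, adjusted p = 3.50e-07). The starved libraries of both lines were under all FM libraries, and the 3 shBruce Starv libraries were the lowest of all 12.

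Ranked by log2 fold change among the 12154 genes tested in shBruce MEFs, Ptgs2 was 4th from the lowest, Lif 5th, Ccl2 10th, Cxcl5 11th, Ccl7 21st and Csf1 59th. In shRenilla MEFs, Ccl2 was 6th, Lif 9th, Ccl7 22nd, Ptgs2 28th, Cxcl5 49th, Csf1 85th and Il11 166th. These ranks are given as a description, since the list was made with such values in view.

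**Figure D2:**
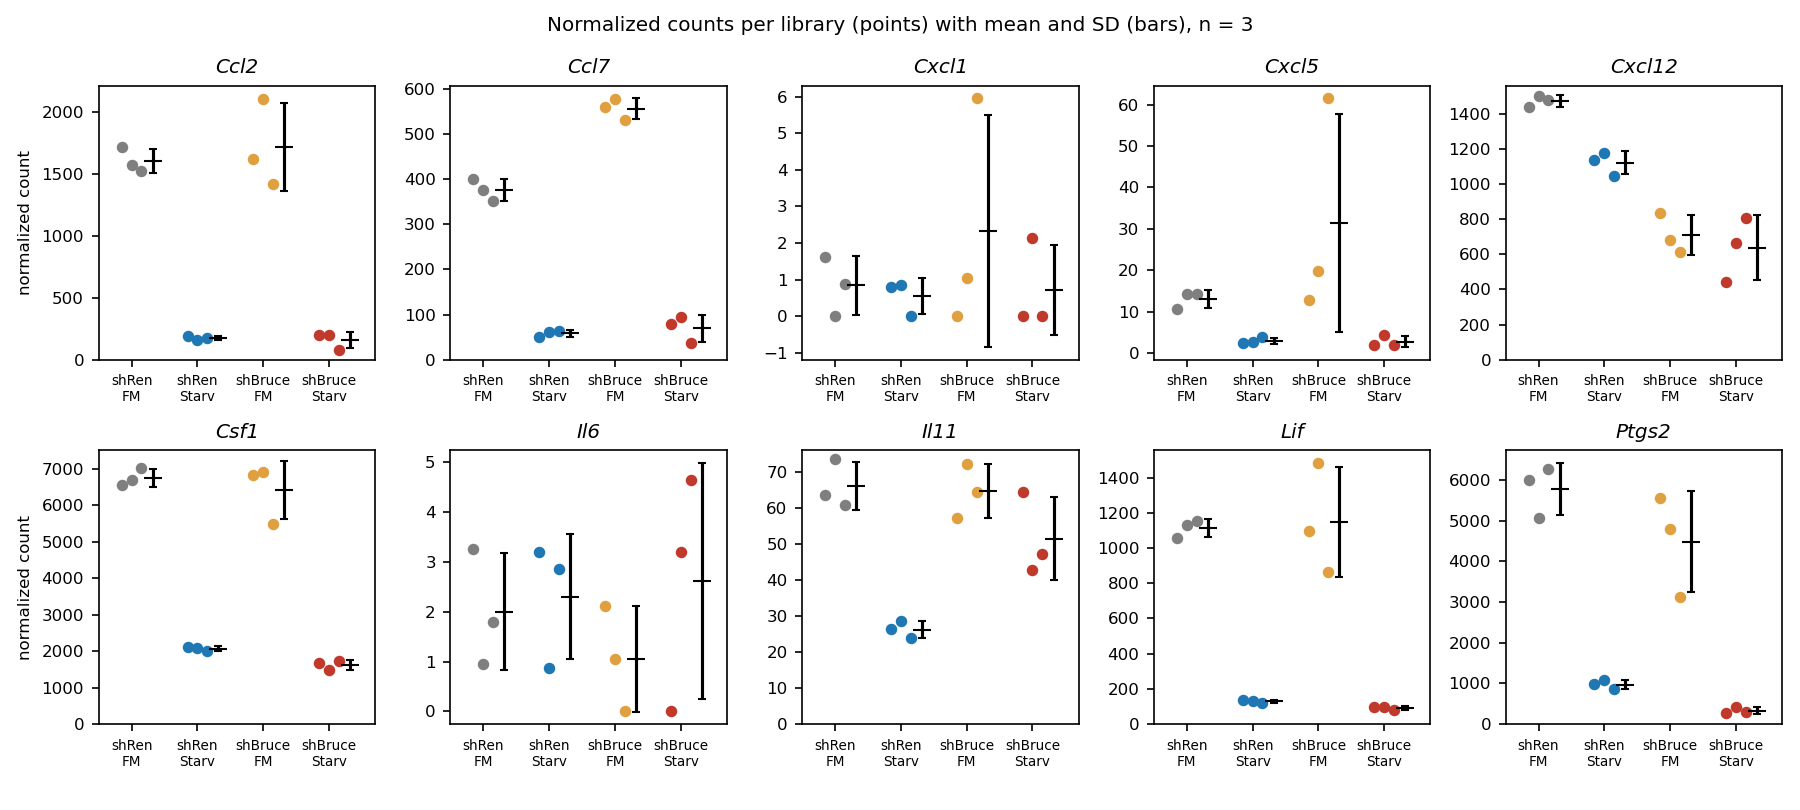
Normalized counts of the 10 genes in each of the 12 libraries (points), with the mean and SD of the 3 libraries of a condition (bars), on linear axes. In Ccl2, Ccl7, Csf1, Lif and Ptgs2 every starved library is under every FM library of its line, whereas Cxcl1 and Il6 stay under 6 normalized counts in every library.

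**Figure D3:**
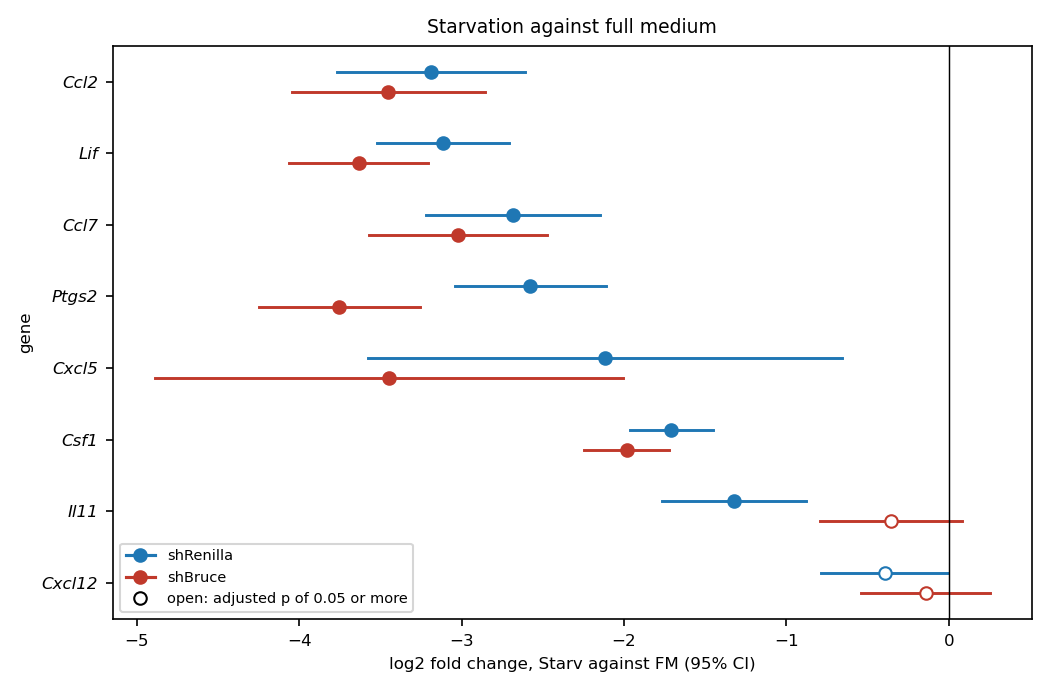
Log2 fold change of starved against FM libraries for the 8 genes tested, with 95% confidence intervals, in shRenilla and shBruce MEFs. Filled points passed an adjusted p of 0.05 by edgeR, which all did but Cxcl12 in both lines and Il11 in shBruce MEFs.

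Across the 12 libraries the genes that fell together followed each other closely, which the shared split between FM and Starv gives by itself. On log2 normalized counts, Pearson's r was 0.994 between Csf1 and Lif, 0.988 between Ccl2 and Lif and 0.984 between Ccl2 and Ccl7, while Cxcl12 had r from -0.19 with Il11 to 0.51 with Ptgs2. Among 10364 genes whose mean normalized count reached 50, the genes with the pattern most like Ccl2 were Mfsd2a (r = 0.994) and Tnfrsf10b (r = 0.991), and those most like Ccl7 were Slc2a1 (r = 0.989) and Mfsd2a (r = 0.987). For Ptgs2 they were Thbs1 (r = 0.990) and Ets2 (r = 0.986). Csf1 and Lif were each other's nearest, followed by Fosl2 (r = 0.993) for Csf1 and Tnfrsf10b (r = 0.993) for Lif. The values were lower for Cxcl5, with Tmem63a and Wdr6 (both r = 0.959), for Cxcl12, with Itgb1 and Tmod3 (both r = 0.947), and for Il11, with Mul1 (r = 0.946) and Ier5l (r = 0.937). All points share these libraries, and no p is given.

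The second question was whether the lines differed in these genes. In FM, 0 of the 8 genes and 0% of all genes were called by edgeR in either direction, with 3 of the 8 and 1750 of all genes at an unadjusted p under 0.05. The DESeq2 Wald test called 76 of all genes and 1 of the 8, Cxcl12, and limma-voom called 0. Cxcl12 was lower in shBruce FM in all 3 libraries, with a mean of 709 ± 114 normalized counts against 1473 ± 31.8 in shRenilla FM, a log2 fold change of -1.05 ± 0.18 (adjusted p = 0.194 by edgeR, 0.000141 by DESeq2). The adjusted p of Cxcl12 by edgeR was 0.0260 with no filter on low counts and 0.0133 with the FM libraries fitted alone.

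Ccl7 in FM had a mean of 556 ± 22.8 normalized counts in shBruce and 376 ± 23.9 in shRenilla MEFs and did not overlap (log2 fold change 0.56 ± 0.22, adjusted p = 0.310). It passed when the FM libraries were fitted alone (adjusted p = 0.0470). Cxcl5 overlapped between the lines in FM (log2 fold change 1.28 ± 0.48, adjusted p = 0.303), with shBruce FM replicate 3 far over the others. The log2 fold changes of Ccl2 (0.10 ± 0.24), Lif (0.04 ± 0.17), Csf1 (-0.07 ± 0.12), Il11 (-0.03 ± 0.19) and Ptgs2 (-0.37 ± 0.20) had 95% confidence intervals that included 0, from -0.81 at the lowest to 0.62 at the highest.

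In Starv, 4 of the 8 genes were called, where 23.9% of all genes were called in either direction. Ptgs2 was lower in shBruce MEFs, at 331 ± 77.8 normalized counts against 971 ± 115, a 2.92-fold difference (log2 fold change -1.54 ± 0.22, adjusted p = 0.0225). Cxcl12 was lower at 638 ± 186 against 1121 ± 65.4 (log2 fold change -0.80 ± 0.18, adjusted p = 0.0225), and Csf1 at 1620 ± 127 against 2064 ± 60.8 (log2 fold change -0.35 ± 0.12, adjusted p = 0.0469). Il11 was higher in shBruce MEFs, at 51.5 ± 11.5 against 26.2 ± 2.38, a 1.92-fold difference (log2 fold change 0.94 ± 0.22, adjusted p = 0.0225).

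In each of these 4 genes the 3 libraries of one line lay apart from the 3 of the other. Lif did not overlap either, at 93.0 ± 10.5 against 128 ± 10.3, and was not called (log2 fold change -0.48 ± 0.20, adjusted p = 0.0867). Ccl2 (log2 fold change -0.17 ± 0.27), Ccl7 (0.23 ± 0.27) and Cxcl5 (-0.05 ± 0.96) overlapped between the lines. The share of all genes without overlap was not counted, so the lack of overlap in these genes gives no support. Of all 12154 genes tested, 5009 were at an unadjusted p under 0.05 by edgeR in this comparison.

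The call of Csf1 was kept in 3 of 10 alternative fits (adjusted p from 0.0232 to 0.132) and in 2 of the 12 fits that left out 1 library (0.0198 to 0.150). It was lost with the size factors of DESeq2 (adjusted p = 0.0548 by edgeR), with upper-quartile scaling (0.0560), with no filter on low counts (0.0655) and with the replicate number as a block (0.0781). Leaving out shBruce Starv replicate 1 left 2 of the 8 genes called, beside 573 of all 12254 genes tested in that fit. Leaving out shBruce Starv replicate 2 left 1 of the 8, beside 15 of all 12284 genes tested. Without shRenilla Starv replicate 1 or replicate 2, and with the 6 starved libraries fitted alone, 0 of the 8 genes and 0 of all genes were called, although the log2 fold change of Ptgs2 was -1.54, -1.46 and -1.55 in these fits, with adjusted p of 0.110, 0.115 and 0.117. Of all genes, 3495, 3409 and 3662 were at an unadjusted p under 0.05 in these fits. Once trends with transcript length and GC content were removed from every library, 1 of the 8 genes and 566 of all genes were called. The 1 gene was Ptgs2 at -1.12 (adjusted p = 0.0364), while Cxcl12 was at -0.55 and Il11 at 0.71.

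**Figure D4:**
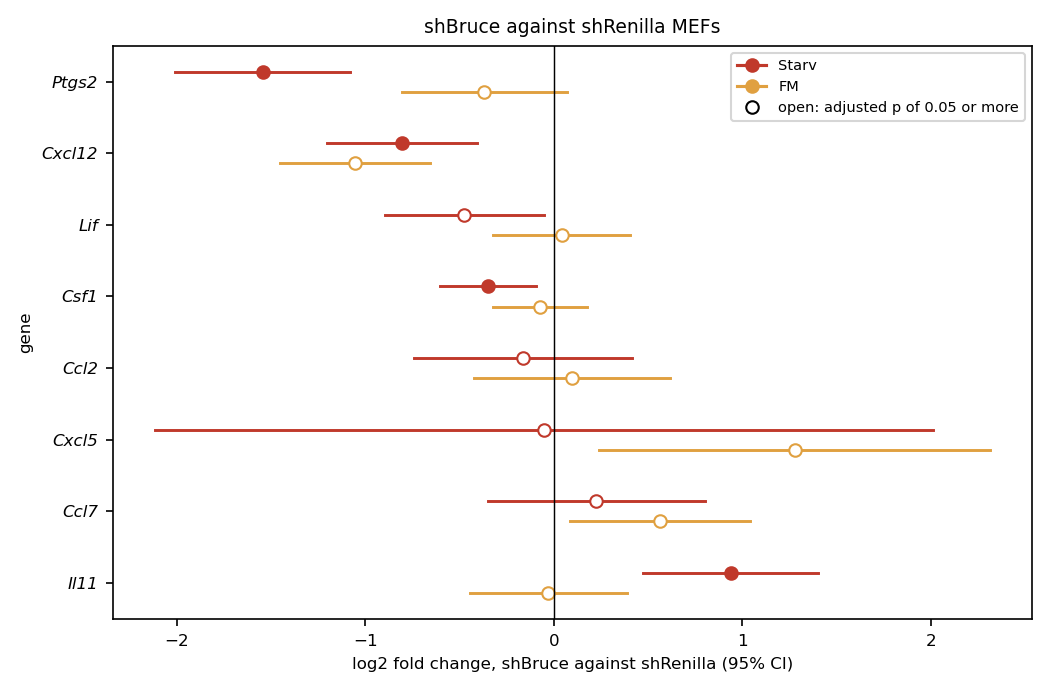
Difference between the lines (log2 fold change, shBruce over shRenilla) for the 8 genes tested, with 95% confidence intervals, in FM and in Starv. Filled points passed an adjusted p of 0.05 by edgeR in the fit of all 12 libraries, which 4 genes did in Starv and 0 in FM.

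The third question was whether starvation acted differently in the lines, which the interaction of line and medium tests. By edgeR 0 of the 8 genes and 0% of all genes were called, with 2 of the 8 and 474 of all genes at an unadjusted p under 0.05, and DESeq2 and limma-voom also called 0. The 2 genes were Ptgs2, with an interaction of -1.18 ± 0.29 on the log2 scale (unadjusted p = 0.00150 by edgeR, adjusted p = 0.806), and Il11, with 0.97 ± 0.29 (unadjusted p = 0.00518, adjusted p = 0.806). The 95% confidence intervals were -1.81 to -0.54 for Ptgs2 and 0.34 to 1.59 for Il11. A difference between the lines in these changes was not shown after correction over all genes.

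Other members of the same families were taken from lists of chemokines, cytokines, receptors, prostanoid enzymes and signalling genes. Of 33 other chemokines 10 were tested, and 3 fell with starvation in shRenilla and 4 in shBruce MEFs, against 7.27% and 10.6% of all genes called lower, with medians of -0.67 and -0.68. Ccl20, a ligand of Ccr6, had normalized counts of 22.9, 23.6 and 25.1 in shRenilla FM and 3.19, 0.865 and 0.952 in Starv, with a log2 fold change of -3.69 ± 0.40 (adjusted p = 5.96e-05). In shBruce MEFs it had 29.7, 27.2 and 33.7 in FM and 0, 1.07 and 0.929 in Starv (-5.05 ± 0.50, adjusted p = 2.10e-05). It too passed the filter through its FM libraries alone, with 0 of the 6 starved libraries at the limit, so its calls, which are among the 3 and the 4, give no support. Cx3cl1 (-1.21 ± 0.15 in shRenilla and -1.45 ± 0.15 in shBruce MEFs) fell in both lines, as did Cxcl10 (-1.01 ± 0.21, adjusted p = 0.00559, and -0.78 ± 0.21, adjusted p = 0.0188), and Ccl9 (-1.43 ± 0.31) fell in shBruce MEFs.

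Of 24 other cytokines 14 were tested, of which 3 were called in shRenilla (2 lower) and 6 in shBruce MEFs (4 lower), beside 7.27% and 10.6% of all genes called lower and 9.69% and 12.4% called higher. Clcf1, a further gp130 ligand, fell in both lines (-1.34 ± 0.21 and -1.29 ± 0.21). Tnfsf11, the RANK ligand, was called lower in both lines (-1.32 ± 0.41 and -1.93 ± 0.45). It reached the limit of the filter in all 6 FM and 2 of the 6 starved libraries, so it passed through its FM libraries. Its calls, which are among the 2 and the 4 called lower, give no support. Tslp fell in shBruce MEFs (-2.24 ± 0.41), and Il15 rose in both lines (0.91 ± 0.26 and 1.11 ± 0.29).

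Several receptors of the listed ligands were at or near 0 in these cells. Ccr1 and Ccr3 had 0 counts in all 12 libraries, which allows a mean of up to 0.867 to 1.20 normalized counts in a condition by counting error, and the means of Ccr2, Cxcr1, Cxcr2, Ptger2 and Ptger3 stayed under 2 normalized counts in every condition, with Csf1r at 3.65 or under. Il6st, the shared gp130 subunit, was at 6103 ± 697 in shRenilla FM and was called lower in shBruce than in shRenilla MEFs in Starv (-0.67 ± 0.20, adjusted p = 0.0338). The starved libraries of the lines overlapped, at 7113, 7043 and 4877 normalized counts in shRenilla and 3898, 2841 and 5213 in shBruce MEFs. With the starved libraries fitted alone, 0 of all genes were called. Ackr3, a scavenging receptor of Cxcl12, was at 253 ± 15.3 normalized counts in shRenilla FM and 177 ± 15.6 in shRenilla Starv (-0.52 ± 0.18, adjusted p = 0.0686).

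Among the receptors that were called, Il6ra rose with starvation from 285 ± 19.0 to 585 ± 73.5 normalized counts in shRenilla (log2 fold change 1.04 ± 0.31) and from 217 ± 81.5 to 728 ± 376 in shBruce MEFs (1.73 ± 0.32). Cxcr4, a receptor of Cxcl12, was called higher in Starv in shBruce (1.67 ± 0.52) but not in shRenilla MEFs (0.86 ± 0.47). Ptgfr, a prostaglandin receptor, was called higher in shRenilla (1.82 ± 0.50) but not in shBruce MEFs (1.05 ± 0.48). Cxcr4 reached the limit of the filter in 1 FM and 5 starved libraries and Ptgfr in 1 and 4, so these calls give no support. Ptger4, a receptor of prostaglandin E2, was lower in Starv in both lines (-2.25 ± 0.47 and -2.35 ± 0.53), but it reached the limit of the filter in all 6 FM libraries and in 1 of the 6 starved ones, so it passed through its FM libraries and these calls give no support. Il11ra1 was higher in shBruce than in shRenilla MEFs in Starv (1.06 ± 0.24, adjusted p = 0.0225), but near-identical copies of this gene can share its reads, so its value is uncertain.

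Of 16 prostanoid enzymes and transporters 8 were tested. In shRenilla MEFs 0 of them were called with starvation, with 1 at an unadjusted p under 0.05. In shBruce MEFs 2 fell, Pla2g4a, which frees arachidonic acid from membranes (-0.50 ± 0.13), and Slco2a1, a prostaglandin transporter (-0.55 ± 0.18). Of all genes, 7.27% were called lower and 9.69% higher in shRenilla MEFs, and 10.6% and 12.4% in shBruce MEFs. Ptgs1, the constitutive cyclooxygenase, had log2 fold changes of -0.46 ± 0.27 and -0.16 ± 0.28 and was not called.

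All 13 genes of gp130 signalling and all 16 factors of AU-rich decay were tested. Of the gp130 genes, 4 fell and 2 rose with starvation in shRenilla MEFs and 5 fell and 2 rose in shBruce MEFs, where 7.27% and 10.6% of all genes fell and 9.69% and 12.4% rose. Among them were Socs1, a feedback inhibitor, at -2.99 ± 0.32 and -2.13 ± 0.31 and the kinase gene Pim1, higher by 1.25 ± 0.12 and 1.38 ± 0.13. Of the decay factors, 5 fell and 1 rose in shRenilla MEFs and 4 fell in shBruce MEFs, to be read against the same shares of all genes, with Zfp36l2, which binds AU-rich elements, at -1.79 ± 0.25 and -2.01 ± 0.25 and Zc3h12a, an RNase, at -1.29 ± 0.20 and -1.46 ± 0.21.

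Between the lines, 0 genes of these 6 lists were called in FM, as 0% of all genes were. In Starv the calls were 0 of the 10 other chemokines (1 at an unadjusted p under 0.05), 3 of 10 receptors, 3 of 8 prostanoid genes, 2 of 13 gp130 genes and 3 of 16 decay factors, where 23.9% of all genes were called. Ptges2, a prostaglandin E synthase gene, was called higher in shBruce MEFs (log2 fold change 0.48 ± 0.15). Its starved libraries overlapped between the lines, at 514, 546 and 382 normalized counts in shBruce and 311, 331 and 388 in shRenilla MEFs. Pla2g4a (-0.63 ± 0.13), the transporter gene Abcc4 (-0.58 ± 0.18), the kinase gene Jak2 (-0.64 ± 0.21) and Cnot1 (-0.92 ± 0.23), the scaffold of a deadenylase complex, were lower. These calls too were made in the fit of all 12 libraries, and 0 of all genes were called when the starved libraries were fitted alone.

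**Figure D5:**
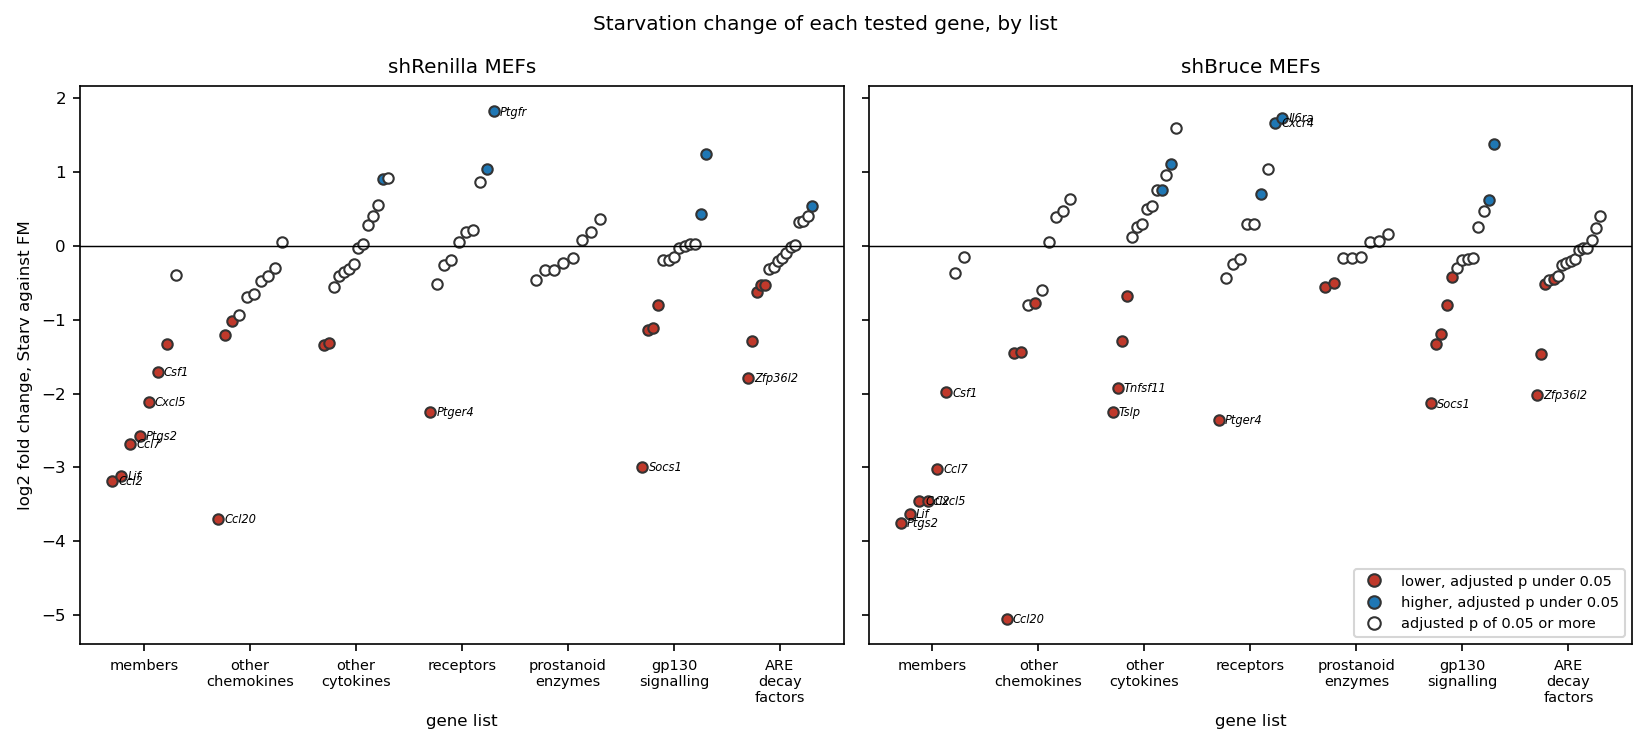
Log2 fold change with starvation of each tested gene of 7 lists, in shRenilla (left) and shBruce MEFs (right), with 1 point per gene sorted within its list. Red points are lower and blue points higher at an adjusted p of 0.05 by edgeR, and names mark the called genes with the largest changes.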

How the data were processed

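RNA-Seq was performed on 12 libraries of MEFs. The authors isolated total RNA, selected poly(A) transcripts, sequenced them in single-end runs of 50 bases, removed rRNA reads, mapped the rest to mm10 and counted reads per gene. The submitters' processing notes name STAR 2.4.0d, HTSeq 0.5.4p3, R 3.2.0, edgeR and limma. The annotation and strand setting of the counting are not given in the sources used here. The deposited values are raw counts per gene symbol, not normalized, for 24062 symbols, of which 27 had been turned into dates (0.296% of counts) and 2 were repeated; none of these is named in the text.

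The genes and lists described here were chosen with earlier results of these data known. The tests used edgeR 4.0.16 under R 4.3.3 (TMM, filterByExpr, quasi-likelihood test, two-sided, Benjamini-Hochberg over 12154 genes, level 0.05), with 1 mean for each of 4 conditions and a shared spread. Fitted were Starv against FM in each line, shBruce against shRenilla in each medium, and the interaction. Exact permutation tests (3 against 3) used log2 normalized counts with a pseudocount of 0.5. The test was checked on simulated counts. Alternatives were DESeq2 size factors, upper-quartile scaling, DESeq2 1.42.0, limma-voom (limma 3.58.1), no filter, at least 10 counts in every library, fits to the libraries of 1 comparison, a block for replicate numbers, a length and GC trend removed (12059 genes with both), and each library left out.

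The names come from a rule: all 10 genes in every comparison, Birc6, the receptors of these ligands, and from each other list in each comparison at most 3 higher and 3 lower genes with the largest change among those called; Ptgs1 was added after its values were seen, and some results for genes of the other lists are not reported here. For likeness of pattern, the 2 genes with the highest correlation were named. Total counts limit precision to counting error at best, and replicates spread beyond it, as chi-square over degrees of freedom lay between 2.21 and 95.7. Positions, lengths and UTRs came from GENCODE M21, where 22724 symbols were found as given and 949 by an older name. Promoters came from RefSeq on GRCm38.p6.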

Additional observations from a re-analysis of the deposited data

How the results depend on the processing

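The counts of genes of the list called lower with starvation stayed at 6 to 8 in shRenilla and 5 to 6 in shBruce MEFs under all 10 alternatives and all 12 fits with a library left out. The counts between lines moved. In FM the count of 0 became 1 with the DESeq2 Wald test, 1 with no filter on low counts and 2 with only the groups compared, and ranged from 0 to 1 with a library left out. In Starv the count of 4 became 0 with only the groups compared, 1 with the length and GC trend removed and 0 with that trend removed together with the replicate block, and ranged from 0 to 5 with a library left out, with 0 without shRenilla Starv replicate 1 or 2. The cause was not tested.

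Replicate numbers gave no sign of pairing the libraries. Same-numbered libraries had correlations of their deviations from -0.42 to 0.31, with 4 of 18 over 0.1. Libraries with different numbers had correlations from -0.34 to 0.45, with 9 of 36 over 0.1. With the replicate block, the counts of genes of the list were 7 and 6 with starvation in shRenilla and shBruce MEFs, 0 between lines in FM, 3 in Starv and 0 for the interaction.

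Over all genes, the count for starvation in shRenilla MEFs was 2061, and 5013 with only the groups compared; in shBruce MEFs it was 2790 and 956. Between lines in FM, 0 became 76 with DESeq2, 7 with no filter, 597 with only the groups compared and 2 with the trend removed, with or without the block. Between lines in Starv, 2907 became 0 with only the groups compared, 1932 with the replicate block, 566 with the trend removed and 1 with both. With a library left out, the 4 counts ranged from 1149 to 3212, from 1855 to 4009, from 0 to 32 and from 0 to 5735.

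Signs turned only for changes that were not called in the edgeR fit of all 12 libraries. Of these, Ccl7 between lines in Starv was called in 1 of the 12 fits with a library left out (adjusted p = 0.0134 by edgeR). In Starv between lines, Ccl7 was at -0.11 with the trend removed and at -0.13 with the trend removed and the replicate block. With a library left out, log2 fold changes ranged from -0.13 to 0.58 for Ccl7, from -0.42 to 0.17 for Ccl2 and from -0.57 to 0.25 for Cxcl5 there; between lines in FM, from -0.077 to 0.22 for Ccl2, from -0.13 to 0.027 for Csf1, from -0.12 to 0.051 for Il11 and from -0.19 to 0.21 for Lif; with starvation, from -0.26 to 0.13 for Birc6 in shRenilla MEFs and from -0.35 to 0.044 for Cxcl12 in shBruce MEFs; and for the interaction, from -0.51 to 0.076 for Ccl2 and from -0.69 to 0.016 for Ccl7.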
